A study of Mus musculus with 8 samples.

Results

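The synaptic vesicle release machinery was described here as 58 genes out of the 19751 genes named on the array. The members were all genes whose symbol was a numbered synaptotagmin (Syt), syntaxin (Stx), VAMP, complexin (Cplx) or RIM (Rims), together with Sv2a, Sv2b, Sv2c, Syn1, Syn2, Syn3, Syp, Snap23, Snap25, Snap29, Snap47 and Snap91. They were read by 81 probes, all of which were tested. A single probe read 39 members, and 19 members had 2 to 4 probes. Syt5 and Vamp9 fit the same naming rule but no probe was matched to them.

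RNA came from the hand-dissected hippocampus of C57BL/6J wild type mice, aged 3 months (3M) in the young group and 29 months (29M) in the aged group. No animal had been treated. By the paper's methods, mice for the aged group were bought already old and then kept for some months in the authors' holding rooms. Each group had 4 samples, each hybridised to 1 single-colour array on which the brightness of a Cy3-labelled spot reports the abundance of a transcript. Values are log2 intensities after variance stabilising normalization, and a change is the 29M mean minus the 3M mean on that log2 scale. The labels do not say that the samples came from separate animals, so p-values measure the spread between these samples.

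In a nerve terminal, vesicles filled with transmitter dock at the active zone, where RIM proteins and their partners hold them close to calcium channels. A SNARE complex then forms from a vesicle protein (VAMP, also called synaptobrevin), a syntaxin and SNAP-25, and pulls the membranes together. Complexins bind this complex and hold it ready, and synaptotagmins sense calcium and trigger fusion. Synapsins tether the reserve pool of vesicles, while SV2 proteins and synaptophysin are carried in the vesicle membrane. In the hippocampus these proteins support transmission at excitatory and inhibitory synapses, and other syntaxins and VAMPs serve traffic through the Golgi, endosomes and the ER in every cell.

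The arrays lay on 3 slides. Slide 1 held 3M sample 1 with 29M samples 3 and 4, slide 2 held sample 2 of each group, and slide 3 held 3M samples 3 and 4 with 29M sample 1, so a change within a slide rests on 1 or 2 samples per group. Between arrays, the correlation of all probes was 0.992 to 0.998, and 76.2% to 85.0% of spots were well above background. The lowest share belonged to 3M sample 1, which was also the only array that the scanner software marked for evaluation. Of the marker lists, all 15 tested neuron markers and all 12 interneuron markers were well above background. Markers of other cells were present too, as in any whole tissue. In these bulk samples, fewer cells of a type and less RNA per cell cannot be told apart.

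Promoter sequences are shown for Cplx2 and Stx3, the members with a called probe, and for Syn1, the only member whose highest-mean probe was lower in all aged samples than in all young ones. The sequences are RefSeq's for GRCm38.p6, from 250 bases before the gene start to 50 bases after it. Cplx2 lies at chr13:54302306-54302605 on the plus strand, Stx3 at chr19:11819354-11819653 on the minus strand and Syn1 at chrX:20920869-20921168 on the minus strand. Capitals mark matches to the 3 motifs searched on both strands, the cyclic AMP response element TGACGTCA, the GC box GGGCGG and the TATA box TATAAA.
Cplx2: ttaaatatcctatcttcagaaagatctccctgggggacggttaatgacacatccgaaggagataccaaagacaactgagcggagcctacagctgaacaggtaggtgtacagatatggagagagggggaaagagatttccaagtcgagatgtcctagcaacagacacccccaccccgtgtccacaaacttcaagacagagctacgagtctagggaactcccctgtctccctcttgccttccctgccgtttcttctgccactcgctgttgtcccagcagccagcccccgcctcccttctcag
Stx3: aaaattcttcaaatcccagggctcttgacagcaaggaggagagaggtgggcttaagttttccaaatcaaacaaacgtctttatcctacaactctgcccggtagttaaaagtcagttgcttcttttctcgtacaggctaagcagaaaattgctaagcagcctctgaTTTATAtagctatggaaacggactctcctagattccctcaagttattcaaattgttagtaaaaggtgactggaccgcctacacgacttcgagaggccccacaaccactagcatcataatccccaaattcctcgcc
Syn1: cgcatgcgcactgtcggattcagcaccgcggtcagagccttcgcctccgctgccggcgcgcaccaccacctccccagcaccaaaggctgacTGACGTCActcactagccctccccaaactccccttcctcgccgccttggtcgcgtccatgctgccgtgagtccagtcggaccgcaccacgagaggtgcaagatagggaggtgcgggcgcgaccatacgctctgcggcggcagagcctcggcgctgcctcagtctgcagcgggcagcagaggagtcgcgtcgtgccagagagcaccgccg
The Syn1 window held a cyclic AMP response element at position -159 from the gene start, and the Stx3 window held a TATA box on the opposite strand at position -85. The Cplx2 window held none of the 3 motifs. Promoters were matched for 44 members. GC boxes stood in the promoters of 34 of them (77.3%), against 49.2% of 17492 protein-coding genes. The cyclic AMP response element was found in 1 member promoter (2.27%, against 2.54% of all genes), and the TATA box in 3 (6.82%, against 14.8%). The median GC content of the member promoters was 62.3%, against 56.3% for all. These matches describe the windows and are not evidence of binding.

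The comparison of 29M with 3M asked whether the level of these transcripts differed in the aged hippocampus. Most of the machinery stayed close to its level in young mice. The median change of the 58 members was 0.02, with a range from -0.37 to 0.48, beside a median of 0.01 over all 19742 genes tested. The low end was Stx19, which was not well above background on any array, and the next lowest was Syn1 (-0.30). On the probe with the highest mean, 34 members lay above 0 and 24 below, and 52 were within 0.25 of 0. The 95% interval of the change lay inside 0.5 in both directions for 44 members. Of all 19742 genes, 10407 lay above 0 and 9335 below, 15678 were within 0.25 of 0, and 14184 had the interval inside 0.5. Most genes on the array thus also stayed close to their young level. To be called, a probe had to move by 0.5 or more on the log2 scale and have an adjusted p under 0.1 (limma, Benjamini-Hochberg over all probes). By this rule 1 member, Stx3, was called higher (1.72% of the members, against 1.80% of all genes), and 1 member, Cplx2, was called lower (1.72%, against 0.866%). Unadjusted p-values under 0.05 were found for 7 members (12.1%), against 17.4% of all genes. The groups did not overlap for 6 members (10.3%), against 11.6% of all genes. The percentages given for members were near those over the array, except for the share called lower, which rests on 1 gene.

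**Figure D1:**
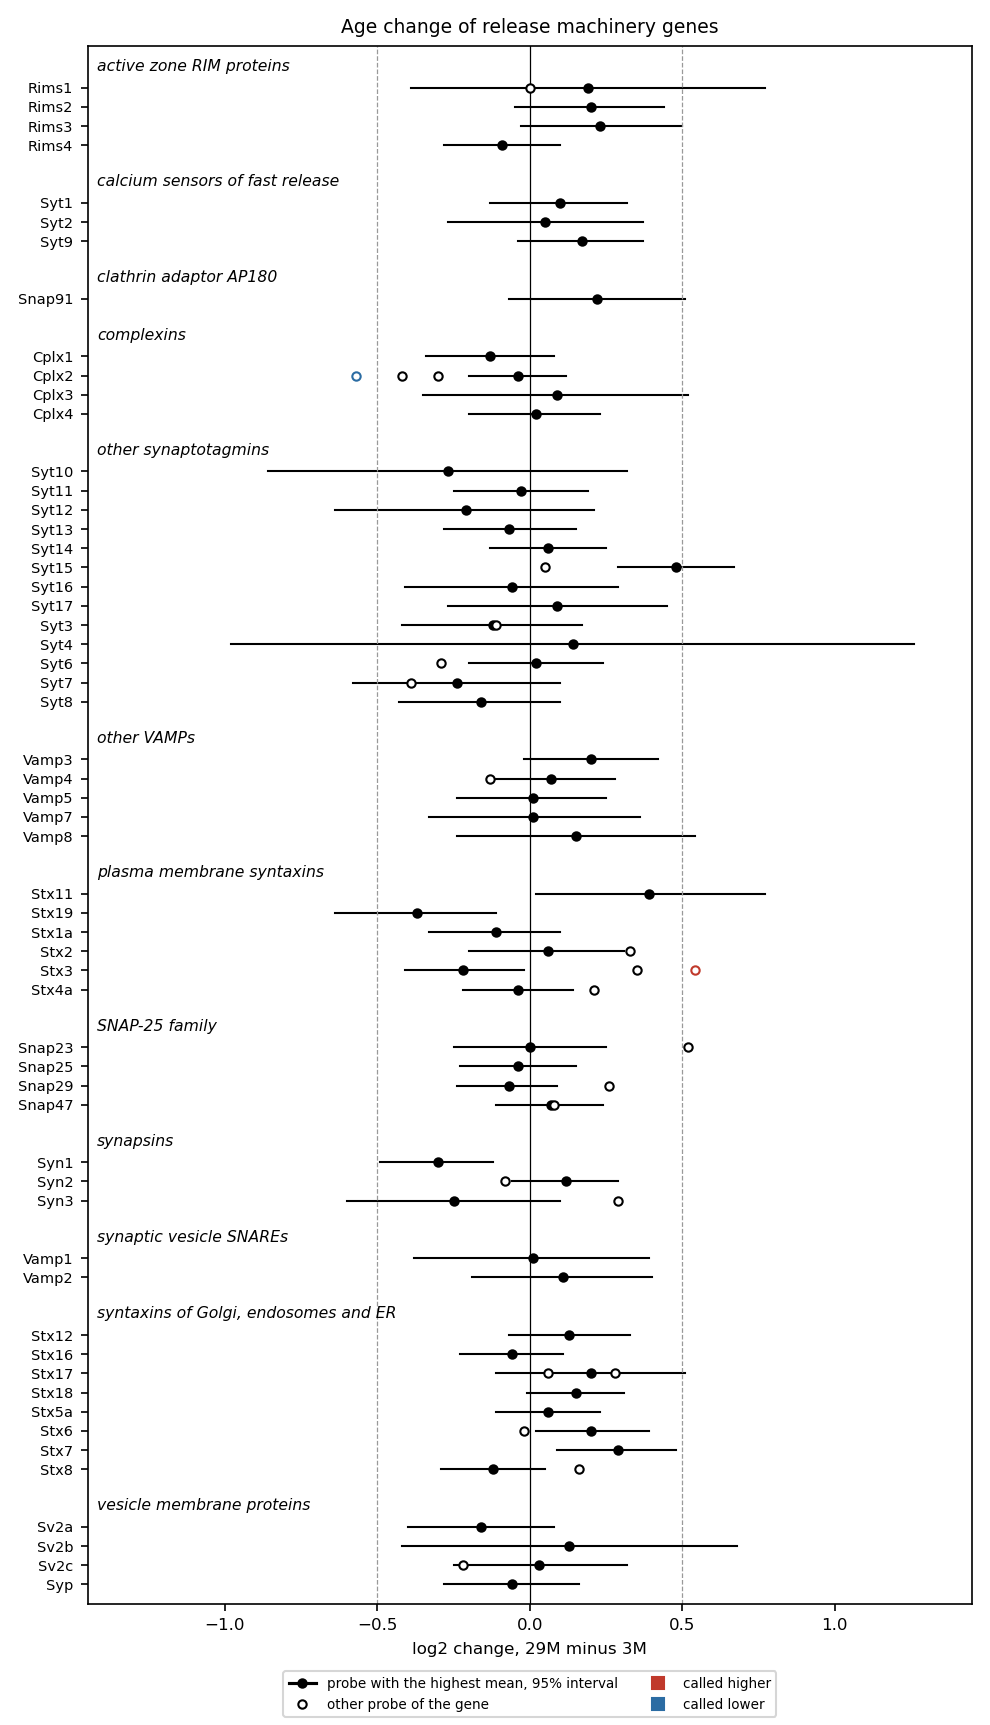
The plot shows the log2 change from 3M to 29M (horizontal axis) of the members, grouped by role. Filled points and lines are the probe with the highest mean and its 95% interval, open points are other probes of the gene, dashed lines mark a change of 0.5, and most members lie within 0.25 of 0 while a Cplx2 probe (-0.57), a Stx3 probe (0.54) and a lesser Snap23 probe that was not called (0.52) lie beyond the dashed lines.

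The core of the fusion machinery gave changes close to 0. Syt1, the main calcium sensor of fast release, had log2 intensities of 17.12, 17.02, 17.15 and 16.82 in the 3M samples and of 17.15, 16.94, 17.26 and 17.14 in the 29M samples. The groups overlapped, with a change of 0.10 (95% interval -0.13 to 0.32, adjusted p = 0.681, limma). Snap25, the SNARE partner of syntaxin at the plasma membrane, changed by -0.04 (-0.23 to 0.15). Vamp2, the vesicle SNARE of forebrain synapses, gave 0.11 (-0.19 to 0.40), and its relative Vamp1 gave 0.01 (-0.38 to 0.39). Stx1a, a syntaxin of neuronal exocytosis, gave -0.11 (-0.33 to 0.10). None of these intervals reached a change of 0.5. The probes of Syt1, Snap25 and Vamp2 were among the bright ones (means of 17.03, 17.43 and 17.07 at 3M). Whether such bright probes understate changes was not tested. No member among the fast calcium sensors or the vesicle SNAREs had an unadjusted p under 0.05, and limma called none. The other fast sensors were Syt2 (0.05), measured well above background on 3 of 4 young arrays, and Syt9 (0.17).

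Complexins, the SNARE-binding regulators of release, gave a split result. For Cplx2, the main complexin of hippocampal excitatory neurons, 4 probes were measured. Probe A_55_P1962603 read 17.59, 17.39, 17.56 and 17.27 in the 3M samples and 16.92, 16.97, 16.84 and 16.80 in the 29M samples. All aged samples lay below all young samples, and the change was -0.57 (SE 0.09, 95% interval -0.78 to -0.36, adjusted p = 0.0211, limma), a level 1.48-fold higher in young mice. It fell within each of the slides, by 0.77, 0.41 and 0.50. This call was kept in all 17 alternative fits, with changes from -0.63 to -0.50. Probe A_51_P485161, which had the highest mean of the 4, read 17.95, 17.89, 17.84 and 17.99 in young samples and 17.85, 17.81, 17.88 and 17.96 in aged samples. On that probe the groups overlapped and the change was -0.04 (SE 0.07, 95% interval -0.20 to 0.12, adjusted p = 0.817). The remaining probes, A_55_P2067960 (-0.42, adjusted p = 0.101) and A_55_P2148402 (-0.30, adjusted p = 0.229), were not called and their groups overlapped. Among choroid plexus markers, 3M sample 3 was low for Otx2 (12.49 against 13.41 to 13.98 in the other young samples). For the brighter Ttr the gap was smaller (18.07 against 18.28). Whether the brightest probes, such as A_51_P485161 of Cplx2, understate changes was not tested. Cplx1, which is found mostly in inhibitory neurons, gave -0.13 (95% interval -0.34 to 0.08). Cplx3 and Cplx4, known from ribbon synapses of the retina, gave 0.09 and 0.02.

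Among the plasma membrane syntaxins, Stx3 was the member called higher. Stx3 serves exocytosis at apical membranes, at ribbon synapses and in dendrites. Probe A_55_P2171658 read 9.42, 9.52, 9.27 and 9.37 in the 3M samples and 9.90, 9.73, 9.84 and 10.28 in the 29M samples. The groups did not overlap, and the change was 0.54 (SE 0.12, adjusted p = 0.0647, limma), or 1.46-fold. Within slides it was 0.64, 0.21 and 0.58. A further probe, A_51_P100298, gave 0.35 (SE 0.09, adjusted p = 0.0951), also without overlap, and was short of the fold threshold. On the probe with the highest mean, A_52_P526379, the samples read 11.21, 11.33, 11.33 and 11.06 at 3M and 10.94, 10.95, 11.07 and 11.09 at 29M. That change was -0.22 (SE 0.09, adjusted p = 0.241) with overlapping groups. The call of Stx3 was lost in 9 of 17 alternative fits. It was lost with slide as a fixed block (0.50, adjusted p = 0.134) and with processed signals scaled by their 75th percentile (0.55, adjusted p = 0.199). The same happened when 3M sample 2 (0.59, adjusted p = 0.135), 3M sample 3 (0.51, 0.141), 3M sample 4 (0.54, 0.126), 29M sample 1 (0.56, 0.155) or 29M sample 4 (0.43, 0.0817) was left out.

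**Figure D2:**
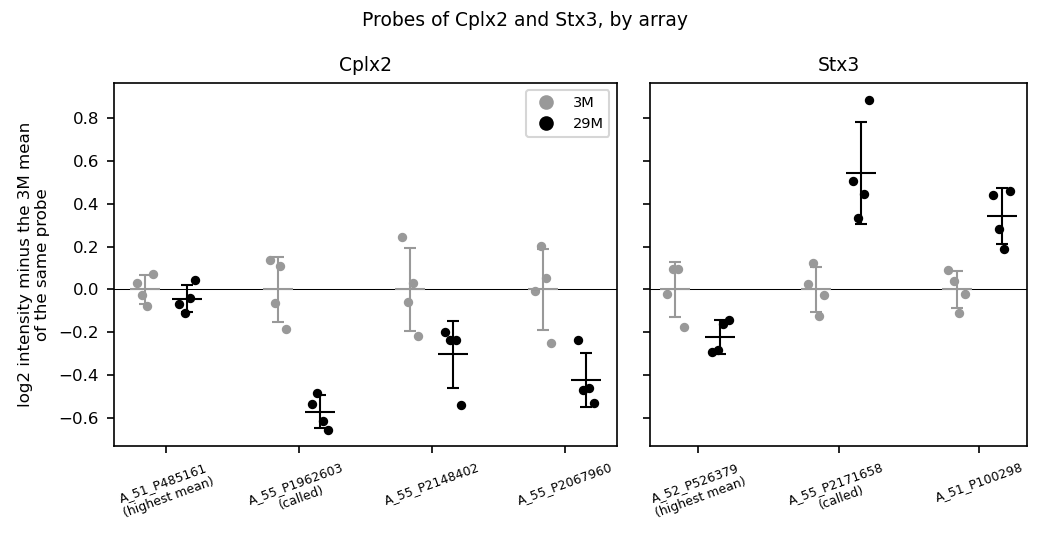
The plot shows the log2 intensity of each array minus the 3M mean of the same probe (vertical axis) for the 4 Cplx2 and 3 Stx3 probes, with 3M in grey and 29M in black, points for samples, horizontal marks for means and bars for SD. The called Cplx2 probe lies below the young samples on all aged arrays (change -0.57) while the probe with the highest mean stays near 0 (-0.04), and the Stx3 probes move in opposite directions (0.54, 0.35 and -0.22).

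The disagreement between probes of a gene was itself tested, as the change with age of each further probe minus the probe with the highest mean. Of 23 such differences among members, 3 were called (13%), in 2 genes, against 1.80% of the 6295 differences over the array. All 3 belonged to Stx3 and Cplx2. The 2 of Stx3 subtract the same highest-mean probe, A_52_P526379, so they are not independent of each other. For Stx3 the difference of A_55_P2171658 rose from -1.84 at 3M to -1.08 at 29M, a change of 0.76 (SE 0.13, adjusted p = 0.0405, limma). The difference of A_51_P100298 rose by 0.56 (SE 0.12, adjusted p = 0.0675). For Cplx2 the difference of A_55_P1962603 went from -0.46 to -0.99, a change of -0.53 (SE 0.12, adjusted p = 0.0827). Each of these kept its sign within all 3 slides, of which slide 1 has 3M sample 1 as its only young array. Left-out samples ended some of these calls. For the first Stx3 difference they were 3M sample 2 (0.77, adjusted p = 0.130), 29M sample 1 (0.75, 0.137) and 29M sample 2 (0.81, 0.105). For the other Stx3 difference they were 3M sample 2 (0.54, 0.188), 3M sample 3 (0.49, 0.145), 29M sample 1 (0.51, 0.182), 29M sample 2 (0.56, 0.171) and 29M sample 4 (0.55, 0.188). With all samples, both Stx3 differences also failed with processed signals scaled by percentile (0.68 and 0.53, adjusted p = 0.192 and 0.193) or variance stabilised (0.66 and 0.48, 0.136 and 0.157). When a sample was left out, the Cplx2 difference passed only without 3M sample 4, and otherwise ranged from -0.58 to -0.47 with adjusted p-values of 0.0916 to 0.215. With all samples it failed with slide as a fixed block (-0.52, adjusted p = 0.129) and with processed signals scaled by percentile (-0.38, 0.384) or variance stabilised (-0.38, 0.325). The part of the transcript that each probe reads was not analysed here. The response of very bright probes, such as the Cplx2 probe with the highest mean, was not tested either.

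The probe with the highest mean of Syt15, an atypical synaptotagmin, read 8.23, 8.24, 8.16 and 8.14 at 3M and 8.73, 8.56, 8.83 and 8.56 at 29M. The groups were apart, with a change of 0.48 (SE 0.09, 95% interval 0.29 to 0.67, adjusted p = 0.0301, limma), which is just short of the 0.5 required for a call. Syt15 was called when 29M sample 2 (0.51) or 29M sample 4 (0.51) was left out. Its other probe, at 0.05, was not well above background on any array. Syt7, a slow calcium sensor of asynchronous release and vesicle replenishment, fell on a lesser probe from 8.28, 8.11, 8.14 and 8.13 to 7.81, 7.85, 7.80 and 7.64, a change of -0.39 (SE 0.08, adjusted p = 0.0458). The groups did not overlap on that probe. The highest-mean probe of Syt7 gave -0.24 (95% interval -0.58 to 0.10, adjusted p = 0.460). Across the 13 synaptotagmins other than the fast sensors, the median change was -0.06 and 1 member, Syt15, had an unadjusted p under 0.05.

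Synapsins did not move together. Syn1, the vesicle phosphoprotein that tethers the reserve pool to actin, read 17.04, 17.17, 17.15 and 17.07 in young samples and 16.75, 16.71, 16.98 and 16.77 in aged ones. All aged samples were lower, and the change was -0.30 (SE 0.08, 95% interval -0.49 to -0.12), but the adjusted p was 0.111 (limma). Syn2 gave 0.12 (adjusted p = 0.488), with all aged samples above all young ones, and its lesser probe gave -0.08. Syn3 gave -0.25 (95% interval -0.60 to 0.10).

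Active zone and vesicle proteins also stayed short of the thresholds. Rims1, Rims2 and Rims3, scaffold proteins of the active zone, gave 0.19, 0.20 and 0.23, and Rims4 gave -0.09. Their adjusted p-values were 0.349 or more (limma). The lesser probe of Rims1 gave 0.00 (95% interval -0.22 to 0.22). Sv2a, the target of the drug levetiracetam, gave -0.16, Sv2b 0.13 and Sv2c 0.03. Syp, which encodes synaptophysin, gave -0.06 (95% interval -0.28 to 0.16). Snap91, the clathrin adaptor AP180 that retrieves vesicle membrane, gave 0.22 (-0.07 to 0.51). None of these members had an unadjusted p under 0.05.

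The syntaxins of the Golgi, endosomes and ER had a median change of 0.14, and 6 of 8 lay above 0. Stx7, a syntaxin of late endosomes, read 14.48, 14.22, 14.31 and 14.29 at 3M and 14.66, 14.69, 14.48 and 14.60 at 29M. Before rounding, all aged samples lay above all young ones, and the change was 0.29 (SE 0.09, adjusted p = 0.140). Stx6 of the trans-Golgi network (0.20, adjusted p = 0.256) and Stx18 of the ER (0.15, adjusted p = 0.331) also had groups that did not overlap. Stx17, which acts in autophagosome fusion, gave 0.20 (95% interval -0.11 to 0.51). No member of this group was called, and 2 had an unadjusted p under 0.05. The VAMPs outside the synaptic vesicle all lay above 0, from 0.01 to 0.20, and the largest of them was Vamp3, a VAMP of endosomal recycling (95% interval -0.02 to 0.42). Snap23, the widely expressed relative of Snap25, gave 0.00 on the highest-mean probe and 0.52 (adjusted p = 0.132) on the other.

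The remaining members with an unadjusted p under 0.05 were Stx11 and Stx19. Stx11, known from granule release in immune cells, read 7.91, 7.20, 7.11 and 7.24 in the young samples and 7.77, 7.67, 7.92 and 7.66 in the aged ones. The groups overlapped only through 3M sample 1, and the change was 0.39 (SE 0.17, adjusted p = 0.271, limma). Without that sample the change was 0.58 and was called (adjusted p = 0.0141). Stx19 was not well above background on any array, so its value, the low end of the range over members, is not read as a change.

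Several members varied more between young samples than between ages. Syt4, a synaptotagmin induced by neuronal activity and chosen here after its values were seen, read 8.70, 11.29, 11.22 and 10.16 at 3M and 10.35, 10.57, 10.19 and 10.80 at 29M. The lowest value belonged to 3M sample 1, and the SD was 1.21 in the young and 0.27 in the aged group. Its change was 0.14 (95% interval -0.98 to 1.26), or -0.41 without 3M sample 1, and within slides it was 1.80, -0.72 and -0.34. Syt10, known from secretion of insulin-like growth factor, read 10.31, 11.67, 11.44 and 11.20 at 3M and 11.06, 11.10, 10.75 and 10.62 at 29M. Its change of -0.27 (adjusted p = 0.648) was called without 3M sample 1 (-0.55, adjusted p = 0.0872). Sv2b, Rims1 and Vamp1 were likewise lowest in 3M sample 1. That sample held the lowest of the 8 values for 12 of the 58 members and the highest for 8, where an even share is 7.2. The lowest value was in the other 3M samples for 9, 6 and 9 members, and 3M sample 3 held the highest for 14. The part that array quality had in this was not tested. Left out, this sample gave 3 members called higher (Stx3, Stx11 and Snap23) and 2 lower (Cplx2 and Syt10), in a fit that called 2.99% of all genes higher and 1.61% lower. The median SD over members was 0.15 at 3M and 0.11 at 29M, beside 0.15 and 0.13 over all genes.

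**Figure D3:**
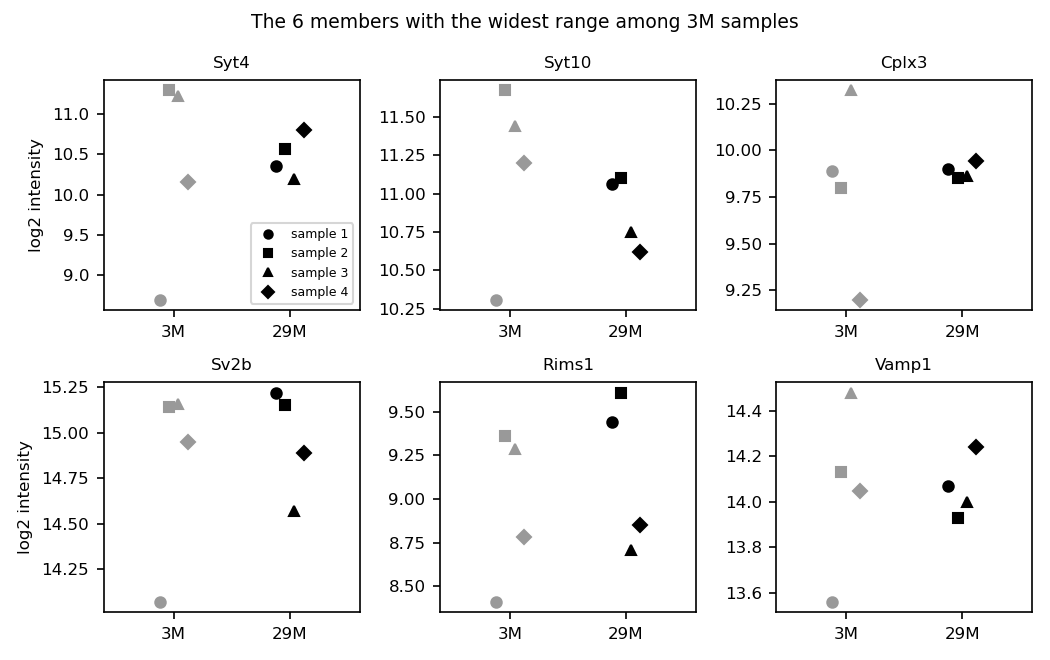
The plot shows the log2 intensity of each sample (vertical axis, a separate scale in each panel) for the 6 members with the widest range among the 3M samples, with a symbol for each sample number. Sample 1 of the 3M group is the lowest young sample in Syt4, Syt10, Sv2b, Rims1 and Vamp1, and in Syt4 it read 8.70 against 10.16 to 11.29 in the other young samples.

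Beyond the members, 108 of 109 listed genes of priming, Rab3 signalling, active zone scaffold, vesicle loading and endocytosis were tested. Their median change was -0.03, and 3 were called higher (2.78%, against 1.80% of all genes) and 4 lower (3.70%, against 0.866%). Among 21 tested genes of SNARE priming and disassembly the median change was 0.01, with 1 called higher and 1 lower. Groups did not overlap for 11.6% of all genes and for 3 of these 21, all 3 of them lower. Apart from the called Unc13c, these were Dnajc5, a chaperone of SNARE proteins (-0.35, adjusted p = 0.199, limma), and Stxbp5l, a tomosyn (-0.26, adjusted p = 0.168), both named after their values were seen. The lesser probes of Dnajc5 gave 0.02 and 0.12 and that of Stxbp5l gave 0.13, all with overlapping groups. Unc13a, the Munc13 priming factor, gave -0.10, and Nsf, the ATPase that takes SNARE complexes apart, also gave -0.10. Rab3a, a vesicle GTPase, gave -0.04. The active zone scaffold genes had a median change of -0.14, with 12 of 15 below 0, and of 6 whose groups did not overlap 5 were lower. Over all 19742 genes, 9335 lay below 0. Of the 2283 whose groups did not overlap, 1035 were lower. Bsn and Pclo gave -0.10 and -0.04. Erc2, a relative of Erc1 (-0.42, adjusted p = 0.0224, limma), and Lin7a (-0.32, adjusted p = 0.0627) had adjusted p-values under 0.1 but were short of the fold threshold, as was Lin7c in the other direction (0.37, adjusted p = 0.0765). These last 3 genes were named after their values were seen. The lesser probe of Erc2 gave -0.06 (adjusted p = 0.729, limma), with overlapping groups. The vesicular transporters of glutamate (Slc17a7) and GABA (Slc32a1) gave 0.14 and -0.17. On the highest-mean probes of Unc13a, Nsf, Rab3a, Bsn, Pclo and both transporters the adjusted p was 0.474 or more (limma).

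Of the genes called lower, Rab3c, a vesicle GTPase related to Rab3a, read 17.06, 17.01, 17.07 and 16.92 at 3M and 16.40, 16.34, 16.68 and 16.41 at 29M. The groups were apart, with a change of -0.56 (SE 0.09, adjusted p = 0.0224, limma), but other probes of Rab3c gave 0.02 and -0.22. The difference of the first of these from the called probe was itself called (0.57, adjusted p = 0.0407). Ap2b1, a subunit of the clathrin adaptor AP-2, gave the largest change of the list, -0.86 (SE 0.18, adjusted p = 0.0506), falling from 13.35 ± 0.35 to 12.49 ± 0.23 (SD, n = 4). Unc13c, a Munc13 known from cerebellar synapses, changed by -0.69 (adjusted p = 0.0523), and Erc1, the active zone scaffold ELKS, by -0.52 (adjusted p = 0.0809). The lesser probes of Erc1 gave 0.07 and 0.01, the last of them not well above background on any array. Of the genes called higher, Dnm2, the widely expressed dynamin that cuts vesicles from the membrane, rose by 0.54 (SE 0.09, adjusted p = 0.0194), while its lesser probe gave -0.09. Stxbp3, a syntaxin-binding protein of many tissues, rose by 0.51 (adjusted p = 0.0533) on a lesser probe and its other probes gave 0.44 and 0.35. Syngr1, a vesicle protein of the synaptogyrin family, rose by 0.51 (adjusted p = 0.0934) on a lesser probe, while its highest-mean probe gave 0.08. Rab3c and Dnm2 kept their calls whichever sample was left out, but not under all other settings. Both lost them with processed signals, whether scaled by percentile (-0.44 and 0.39) or variance stabilised (-0.43 and 0.40), and Dnm2 also with slide as a fixed block (0.50, just short of the threshold). Ap2b1 lost its call without 3M sample 2 or 29M samples 1, 2 or 4 (-0.92 to -0.76, adjusted p = 0.112 to 0.139). Unc13c lost it without 3M samples 2 or 3 or 29M samples 1, 2 or 4 (-0.74 to -0.61, 0.111 to 0.150). Stxbp3 lost it without 3M samples 2, 3 or 4 or 29M samples 1, 2 or 4 (0.43 to 0.53, 0.104 to 0.146). Erc1 kept it only without 3M sample 1 and Syngr1 only without 3M sample 4.

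**Figure D4:**
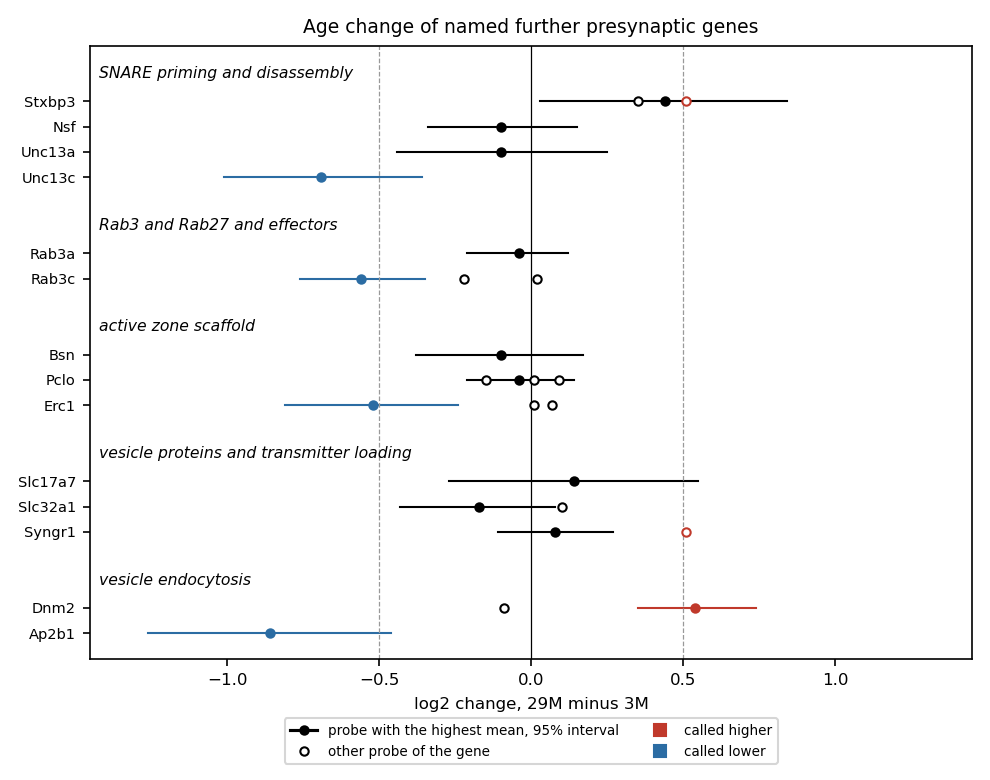
The plot shows the log2 change from 3M to 29M (horizontal axis) of 14 further presynaptic genes by role, with filled points and lines for the highest-mean probe and its 95% interval and open points for other probes. Ap2b1 (-0.86), Unc13c (-0.69), Rab3c (-0.56) and Erc1 (-0.52) lie to the left and Dnm2 (0.54) to the right, while Rab3a and Pclo lie near 0.

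Markers of other cells moved in part with age. Neuron markers had a median change of -0.05 with none called by limma, and 1 of 15 had an unadjusted p under 0.05. Interneuron markers also had a median of -0.05, with none called and 1 of 12 at an unadjusted p under 0.05. The summed level of the neuron list, in kilo-units of normalized intensity, was 1240 to 1400 at 3M and 1190 to 1300 at 29M. That of the interneuron list was 669 to 768 at 3M and 610 to 667 at 29M. Bright probes weigh most in such a sum, and the brightest interneuron marker was Cck (18.12 at 3M, 17.89 at 29M, adjusted p = 0.342, limma). Groups did not overlap for 2 of the 12 interneuron markers, against 11.6% of all genes. Microglia markers had a median of 0.41 with 5 of 14 called higher, and their summed level was 276 to 297 at 3M and 318 to 363 at 29M. Astrocyte markers had a median of 0.15 with 1 called (Gfap), and oligodendrocyte markers 0.16 with 1 called (Ermn). Ermn was called on a lesser probe (0.75), and its highest-mean probe gave -0.24 (adjusted p = 0.280). Their summed levels overlapped between ages, at 495 to 593 and 535 to 578 for astrocytes and 642 to 749 and 673 to 760 for oligodendrocytes. Choroid plexus and endothelial markers had medians of 0.16 and 0.07 with none called by limma, and 0 and 2 of 10 had an unadjusted p under 0.05. The choroid plexus median was not stable: it was -0.12 without 3M sample 3 and 0.31 without 3M sample 2, and -0.61 within slide 2. All tested markers of these lists were well above background on the arrays. The part of cell makeup in the values of Cplx2, Stx3 and Stx11 was not tested.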

How the data were processed

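Cy3 signal was measured on Agilent single-colour arrays of 4 hippocampus samples at 3M and 4 at 29M. The authors deposited the scanner's linear spot intensities without normalization; the file headers name Agilent Feature Extraction 10.7.3.1. The deposited table of the whole series held local background, in most columns that of another sample's array than the column names, and was not used; each scanner file was taken for the sample it was deposited under. Control spots and outlier spots (127 to 190 per array) were removed, and no spot was saturated. Median intensities received a variance stabilising normalization (trimming quantile 0.9, 7 iterations) written in R 4.3.3, whose log2 scale understates changes of dim probes. The 39408 probes with at least 3 usable arrays per group were tested with limma 3.58.1. Vamp7 lacked a value in 3M sample 2. The number of arrays limits the precision.

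Probe accessions were matched to RefSeq genes of GRCm38.p6 (66.1% of probes). A gene was called if any probe was, and gene values are those of the highest-mean probe unless another is named. Named members had a called probe, an unadjusted p under 0.05, one of the 8 largest rises or falls, or a core role; 2 genes that the rule names are not reported here. The members and lists were chosen with earlier results of these data known. Alternatives changed the normalization, input signal, filters, block, prior, threshold and samples. Deviations of same-numbered samples from their group means correlated with r of -0.26, 0.22, -0.25 and 0.08. These values cannot decide whether samples were paired, since the samples numbered 2 also shared slide 2. On simulated arrays (39408 probes, 200 changed by a log2 of 1), 87.5% of changes were recovered and 10.7% of calls were false. Of 6295 simulated probe differences 56 were changed, of which 78.6% were recovered with 12% of calls false. Smaller changes, such as those of the called members, were not simulated, so the shares recovered do not apply to them.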

Additional observations from a re-analysis of the deposited data

Results flagged for a closer look

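A sample was set apart where its gap to the nearest other sample of its group, divided by the range of the group, was above Dixon's critical value for 4 samples. This was tested in 98 groups of 4 values, and chance sets apart about 1 in 20 of them, or 4.9; 7 were found. In the 29M group, sample 1 stood above the others for Rims3 (ratio 0.908, log2 intensity 7.48 against 7.11 to 7.15) and for Syn2 (0.902, 17.37 against 17.16 to 17.18). Sample 2 of the 29M group stood above the others for Sv2c (0.862, 6.78 against 6.36 to 6.41) and below them for Syp (0.966, 17.02 against 17.30 to 17.31). In the 3M group, sample 1 stood above the others for Stx11 (0.832, 7.91 against 7.11 to 7.24). The same sample stood below the others for Syt12 (0.886, 5.81 against 6.61 to 6.71) and for the glutamate transporter gene Slc17a7 (0.977, 13.36 against 14.12 to 14.14). The Syt12 probe was well above background on 3 of 4 young arrays.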

How the results depend on the processing

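The call of Cplx2 lower was kept in all alternatives except the use of the highest-mean probe alone, which gave 0 members called lower and 0 higher. The single member called higher became 0 with processed signals scaled by percentile, with processed signals variance stabilised, with slide as a fixed block and at an adjusted p under 0.05. The 3 other presynaptic genes called higher became 0, 2, 0 and 1 in the same order of settings, and 1 with normexp and quantile normalization; the 4 called lower became 0, 2, 2 and 1. The 3 called probe differences became 0, 0, 1 and 1. The replicate block joins samples by their number, and under it Dnm2 was not called (adjusted p = 0.116, limma). With this block 0 members were called higher, 0 and 2 other presynaptic genes higher and lower, and 0 probe differences. In deviations from the group means, 1 of the 4 young samples correlated best with the aged sample of its own number. With each sample left out in turn, members called higher ranged from 0 to 3 and lower from 1 to 2, other presynaptic genes higher from 1 to 2 and lower from 1 to 4, and probe differences from 0 to 3. The astrocyte marker median of 0.146 became 0.075 with percentile scaling and ranged from 0.047 to 0.17 with a sample left out. The cause of these changes was not tested. No called value changed sign.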
